A study of Mus musculus with 8 samples.

Results

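The integrin subunits and laminin chains were the 37 genes, of 24849 genes listed, whose symbol starts with Itga, Itgb, Lama, Lamb or Lamc and ends in the number or letter of the subunit. They were 18 integrin α and 8 integrin β subunits, and 5 laminin α, 3 laminin β and 3 laminin γ chains. PolyA RNA was sequenced from MPI-II mouse embryonic stem cells (mESCs) of 129S2/SvPas origin, either wild type or Pcgf5-/-, at day 0 or day 6 of neural differentiation, with 2 biological replicates in each of the 4 conditions. Pcgf5 encodes a subunit of a variant Polycomb repressive complex, and the study asked what its loss changes when mESCs take a neural fate. At day 0 both genotypes grew on feeder cells in DMEM with serum, LIF and the inhibitors CHIR99021 and PD0325901, and at day 6 both were in N2B27, a serum-free medium for neural differentiation. The Pcgf5-/- cells were made with TALENs against the second exon and donors carrying loxP-flanked puromycin and neomycin cassettes, and single colonies were picked after selection. A difference between the genotypes and a difference between picked colonies cannot be told apart, and the number of colonies behind the libraries was not given in the sources used here.

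Expression is given as FPKM, fragments scaled to exon length and to the mapped fragments of the library, so that levels can be compared between genes per length. The files hold no read counts, so the depth behind a value is unknown. Log2 fold changes, also called changes in log2 units, are differences in mean log2(FPKM + 1). They understate the change of weakly expressed genes, so a ratio of mean FPKM printed beside them can be larger. Pcgf5 ran from 3.63 to 9.16 FPKM in the wild-type libraries and from 0.457 to 1.84 FPKM in the Pcgf5-/- libraries, and at day 6 its log2 fold change was -2.33 (standard error, SE, 0.28, limma adjusted p = 0.00421). At day 0 its log2 fold change was -1.07 (SE 0.28) and did not pass (limma adjusted p = 0.105). Across the tested genes the Pearson r between replicates was 0.972 to 0.974. The labelled cell type was checked on markers: the summed FPKM of 14 naive pluripotency genes was 1986 to 2179 in the 4 libraries of day 0, 304 and 125 in wild type at day 6, and 977 and 832 in Pcgf5-/- cells at day 6. The summed FPKM of 12 neural progenitor genes was 223 to 324 at day 0, 786 and 834 in wild type at day 6, and 353 and 344 in Pcgf5-/- cells at day 6. Vim made up most of the sums of day 0, at 201 to 282 FPKM, and was at 155 and 134 FPKM in Pcgf5-/- cells at day 6. Between the days 10 of the 12 genes rose and 1 fell in Pcgf5-/- cells, and 10 rose and 0 fell in wild type (limma adjusted p under 0.05). Replicate 1 of wild type at day 6 stood apart in genes of primitive endoderm, and replicate 2 of Pcgf5-/- cells at day 0 had the highest feeder fibroblast markers. Tested genes of chromosomes 6 and 11 had raised medians in Pcgf5-/- cells, on chromosome 11 by 0.48 at day 0 and 0.38 at day 6 on the log2 scale, against 0.11 and 0.02 over all tested genes.

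Integrins are receptors of one α and one β subunit that span the cell membrane and hold cells to the matrix around them. The α subunit largely decides what is bound: Itga3, Itga6 and Itga7 belong to laminin receptors, Itga5, Itga8, Itgav and Itga2b to receptors of the RGD motif in fibronectin, vitronectin and related proteins, Itga1, Itga2, Itga10 and Itga11 to collagen receptors, and Itgal, Itgam, Itgad and Itgax pair with Itgb2 on leukocytes. Laminins are cross-shaped trimers of one α, one β and one γ chain that polymerise into basement membranes, the sheets on which early embryonic and neural epithelia stand. The trimer of Lama1, Lamb1 and Lamc1 is the main laminin of the earliest embryonic basement membranes and is made in large amounts by primitive endoderm and its derivatives, while Lama5 takes the place of Lama1 in a second widely used trimer.

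Promoter sequences from RefSeq (build GRCm38.p6) were matched by symbol for 23 of the 37 genes, with 26 promoters in all. The 250 bases before the start of 4 genes are shown, 5′ to 3′ on the strand of the gene, because 3 of them (Itgb8, Itgb7 and Lamb2) differed between the genotypes at day 6 and Itgb1 had the highest FPKM of the family. Capitals mark CG, the dinucleotide searched for, which reads the same on both strands.

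Itgb8 (chr12:119238277-119238526, minus strand): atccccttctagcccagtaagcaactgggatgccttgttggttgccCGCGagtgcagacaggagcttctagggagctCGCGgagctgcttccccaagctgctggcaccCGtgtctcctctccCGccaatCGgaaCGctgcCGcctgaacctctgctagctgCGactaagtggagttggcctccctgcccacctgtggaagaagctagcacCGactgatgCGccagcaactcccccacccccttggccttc

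Itgb7 (chr15:102231936-102232185, minus strand): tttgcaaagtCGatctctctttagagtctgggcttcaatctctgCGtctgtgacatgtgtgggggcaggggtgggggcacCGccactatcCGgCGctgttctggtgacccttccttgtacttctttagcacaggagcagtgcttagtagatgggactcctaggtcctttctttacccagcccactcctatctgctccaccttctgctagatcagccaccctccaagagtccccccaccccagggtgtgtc

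Lamb2 (chr9:108479612-108479861, plus strand): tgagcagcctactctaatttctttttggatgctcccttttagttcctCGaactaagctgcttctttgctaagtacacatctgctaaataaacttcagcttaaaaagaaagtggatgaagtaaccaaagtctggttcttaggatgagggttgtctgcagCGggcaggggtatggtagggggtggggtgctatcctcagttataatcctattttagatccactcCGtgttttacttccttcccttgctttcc

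Itgb1 (chr8:128685404-128685653, plus strand): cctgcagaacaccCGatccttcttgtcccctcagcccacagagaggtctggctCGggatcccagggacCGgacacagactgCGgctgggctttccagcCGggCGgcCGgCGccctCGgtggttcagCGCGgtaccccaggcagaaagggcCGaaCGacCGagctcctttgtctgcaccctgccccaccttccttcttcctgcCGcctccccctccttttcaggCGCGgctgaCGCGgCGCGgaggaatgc

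These promoters differed widely in CG content. Itgb1 held 21 CG dinucleotides, Itgb8 12, Itgb7 5 and Lamb2 3. Of all 32851 promoters in the table, 16.3% held at least as many as Itgb1, 33.5% at least as many as Itgb8, 55.6% at least as many as Itgb7 and 71.0% at least as many as Lamb2, and 92.1% held at least 1. The count did not separate the direction of the genotype difference: Itgb8 and Lamb2 were lower and Itgb7 higher in Pcgf5-/- cells. It was higher among the expressed genes: the median was 13 CG (range 3 to 22) over 14 promoters of 13 genes with a mean over 1 FPKM in at least one condition, and 4 CG (range 0 to 12) over 12 promoters of 10 genes below that minimum, beside a median of 6 over all promoters. This is a description, with no test, and some genes have 2 promoters.

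Of the 37 genes, 22 had a mean over 1 FPKM in at least one condition and were tested, 15 integrins and 7 laminins, and 15 were not tested. Among the tested genes, 12 passed the minimum in all 4 conditions and 4 in 1 condition only: Itga7 in Pcgf5-/- cells at day 0, Itga8 in wild type at day 6, and Itgam and Itgb4 in Pcgf5-/- cells at day 6. Itgad and Itgax were listed at 0 in all 8 libraries, and 12 genes never exceeded 1 FPKM in any library, these 2 among them. The genes below the minimum included the collagen-binding subunits Itga1 (0.100 to 0.326 FPKM), Itga2 (0 to 0.0644 FPKM) and Itga10 (0.0814 to 0.287 FPKM), the epithelial laminin chains Lama3 (0.0631 to 0.564 FPKM) and Lamb3 (0.0303 to 0.561 FPKM), Lamc3 (0 to 0.0271 FPKM) and Itgb6 (0 to 0.0451 FPKM). Itga4 lay between 0.0703 and 0.471 FPKM, Itga2b between 0.121 and 0.529 FPKM and Itgb2 between 0 and 0.290 FPKM. Itgae reached 1.16 FPKM, Itga11 1.20 FPKM and Lama2 1.13 FPKM, each in a single library of Pcgf5-/- cells at day 0. By FPKM the family was dominated by Itgb1, the β subunit shared by most α subunits, and by Lamc1, the γ chain of most laminin trimers, which ranked first and second in every condition.

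**Figure D1:**
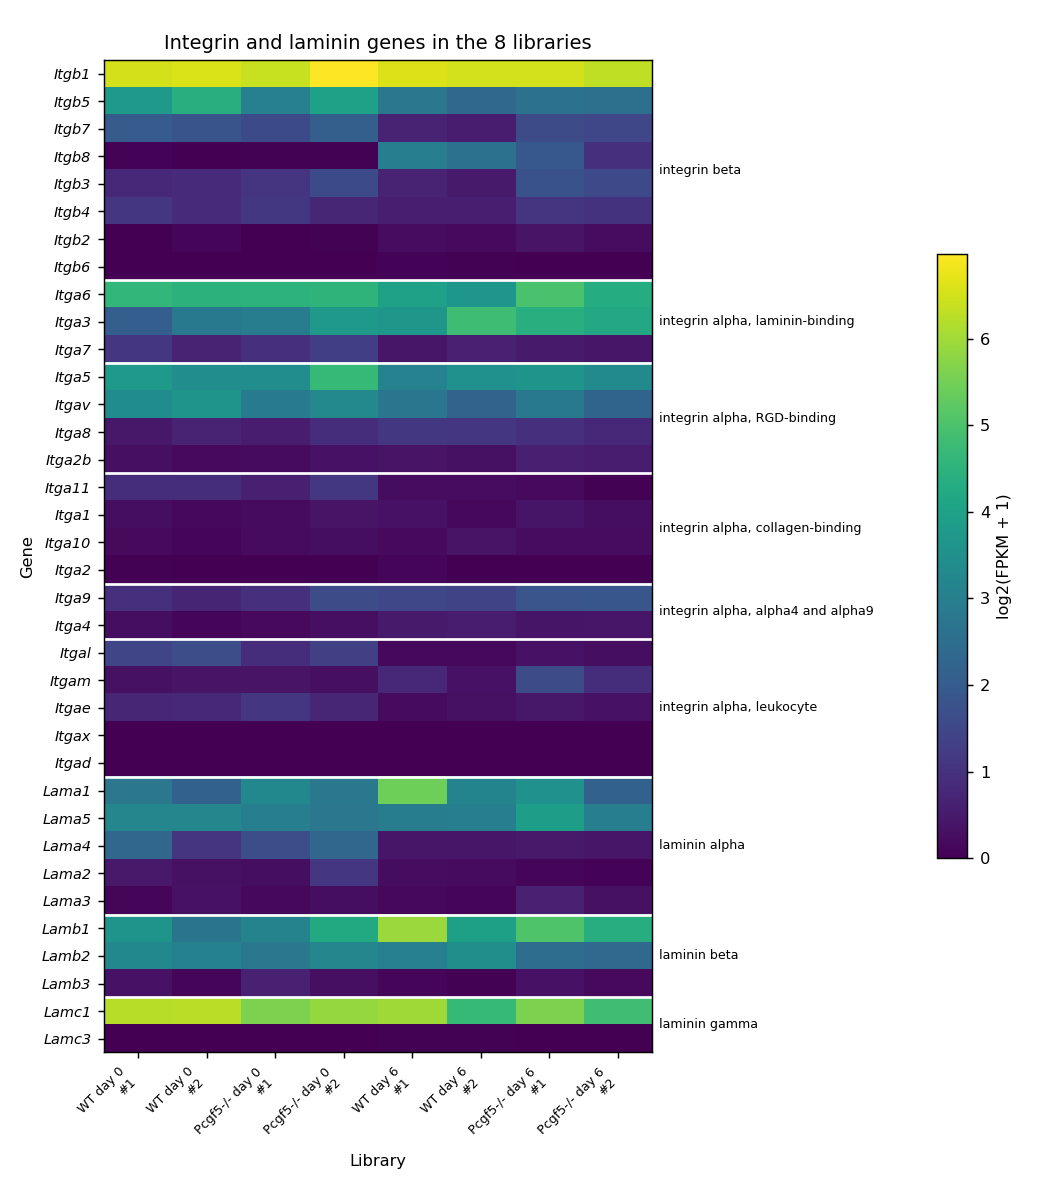
Heat map of log2(FPKM + 1) for integrin and laminin genes (rows, by role) in the 8 libraries (columns, 2 per condition). Itgb1 and Lamc1 are the brightest rows in every condition, Itgb8 is dark in all 4 libraries of day 0, and Lama1 and Lamb1 are brightest in replicate 1 of wild type at day 6.

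The first comparison asked how these genes moved as wild-type mESCs differentiated. Between day 0 and day 6 in wild type, 4 of the 22 tested genes rose (Itgb8, Itga3, Itga8 and Lamb1) and 7 fell (Itgb7, Itgb5, Itga6, Itgav, Itgal and Lama4 among them), by limma with a Benjamini-Hochberg adjusted p under 0.05 over all 13214 genes tested. Over all tested genes 34.2% rose and 16.2% fell. A gene that reached the minimum level only on the day on which it was high had to differ between the days, so these counts are a description. The median log2 fold change was -0.27 over the 22 genes and 0.22 over all tested genes. In bulk RNA, fewer cells of a type and less RNA per cell cannot be told apart.

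Among the β subunits, Itgb1 had the highest FPKM on both days, with 91.3 and 94.9 FPKM at day 0 and 96.5 and 89.8 FPKM at day 6 in wild type, ranges that overlap. Itgb8, which pairs with αv and binds latent TGF-β, had 0.0458 and 0 FPKM at day 0 and 6.88 and 5.07 FPKM at day 6. Both libraries of day 0 were at or near 0 and both of day 6 above 5 FPKM, and it rose by 2.76 on the log2 scale (SE 0.30, limma adjusted p = 0.000208). Itgb5, another αv partner, had 12.5 and 20.0 FPKM at day 0 and 5.75 and 4.14 FPKM at day 6, a change of -1.51 in log2 units (SE 0.34, limma adjusted p = 0.00631). Itgb7, known from lymphocytes as the partner of Itga4 and Itgae, had 3.11 and 2.54 FPKM at day 0 and 0.583 and 0.466 FPKM at day 6. Its log2 fold change was -1.32 (SE 0.22, limma adjusted p = 0.00160), and its groups did not overlap.

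Of the laminin-binding α subunits, Itga6 fell and Itga3 rose. Itga6, a receptor subunit long used to mark stem cells, had 23.8 and 21.6 FPKM at day 0 and 15.0 and 11.8 FPKM at day 6, a change of -0.72 in log2 units (SE 0.22, limma adjusted p = 0.0250). Itga3 had 3.25 and 6.04 FPKM at day 0 and 12.1 and 26.9 FPKM at day 6, a change of 1.80 in log2 units (SE 0.41, limma adjusted p = 0.00706). As a share of the summed FPKM of Itga3, Itga6 and Itga7, Itga3 was 11.5% and 21.4% at day 0 and 43.9% and 68.5% at day 6. In wild type the laminin-binding transcripts thus passed from mostly Itga6 to a mixture in which Itga3 held the larger share in 1 of the 2 libraries.

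Of the RGD-binding subunits, Itgav fell. Itgav, the partner of Itgb1, Itgb3, Itgb5, Itgb6 and Itgb8, had 9.59 and 11.3 FPKM at day 0 and 5.63 and 3.66 FPKM at day 6, a change of -1.04 in log2 units (SE 0.26, limma adjusted p = 0.0116). Itga8, which pairs with Itgb1 and binds nephronectin, had 0.370 and 0.575 FPKM at day 0 and 1.18 and 1.13 FPKM at day 6, a change of 0.55 in log2 units (SE 0.19, limma adjusted p = 0.0400). Itga8 was tested only because it passed the minimum in wild type at day 6, where it was high, so this call rests in part on that selection. Its change was 0.16 after quantile normalization (limma adjusted p = 0.510) and 0.10 after centring by chromosome (limma adjusted p = 0.648). Itga5, the fibronectin receptor subunit, had 12.5 and 9.80 FPKM at day 0 and 7.51 and 10.5 FPKM at day 6, and these ranges overlap.

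Itgal, the α subunit of the leukocyte integrin that binds ICAMs, fell from 1.75 and 2.12 FPKM to 0.113 and 0.115 FPKM in wild type, a change of -1.39 in log2 units (SE 0.19, limma adjusted p = 0.000621). Its β partner Itgb2 was at 0 and 0.0843 FPKM in the same libraries of day 0. Of 12 leukocyte and platelet markers, 3 were over 1 FPKM in each wild-type library of day 0, and their summed FPKM was 55.5 and 37.8 at day 0 and 8.92 and 7.27 at day 6. Of the 4 tested markers 3 fell with Itgal in wild type. These were Laptm5, from 39.5 and 27.6 FPKM to 2.01 and 0.646 FPKM (log2 fold change -3.93, limma adjusted p = 0.000131), Spi1 (2.49 and 1.08 FPKM at day 0) and Cd3e (0.904 and 0.494 FPKM at day 0). Cd68 was at 12.4 and 7.72 FPKM at day 0 and at 5.71 and 5.37 FPKM at day 6. The defining leukocyte marker Ptprc was at 0.0268 and 0.0452 FPKM in wild type at day 0 and at or below 0.136 FPKM in all 8 libraries, and Pf4 was at 0 in 7 of them. The part of leukocyte transcripts in the fall of Itgal was not tested.

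Of the laminin chains, Lamb1 rose and Lama4 fell in wild type. Lamb1 had 11.3 and 5.40 FPKM at day 0 and 59.6 and 14.7 FPKM at day 6, a change of 1.80 in log2 units (SE 0.64, limma adjusted p = 0.0445). That call was kept in 7 of 17 alternatives and lost with quantile normalization, no filter on low values, no variance trend, only the groups compared and centring by chromosome (limma adjusted p = 0.0541 to 0.113), and without 5 of the 8 libraries. Lama1 had 5.83 and 3.49 FPKM at day 0 and 42.1 and 7.92 FPKM at day 6, and its log2 fold change of 1.82 (SE 0.69) did not pass (limma adjusted p = 0.0571). Lamc1, the third chain of the trimer, had 74.3 and 75.6 FPKM at day 0 and 62.5 and 24.6 FPKM at day 6, and did not pass. Lama4, a chain of mesenchymal and vascular laminins, had 3.96 and 1.13 FPKM at day 0 and 0.346 and 0.347 FPKM at day 6, a change of -1.27 in log2 units (SE 0.38, limma adjusted p = 0.0225), and of -0.66 without replicate 1 of day 0 (limma adjusted p = 0.111). Lama5 had 8.35 and 8.38 FPKM at day 0 and 6.84 and 6.86 FPKM at day 6, and Lamb2 7.25 to 9.86 FPKM across both days.

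Replicate 1 of wild type at day 6 stood apart in these chains. It held the highest FPKM of Lama1 and Lamb1 of all 8 libraries, and also of the type IV collagen genes Col4a1 and Col4a2, with Col4a1 at 105 FPKM against 20.6 FPKM in replicate 2, while Col4a5 and Col4a6 were highest in other libraries. Of 15 primitive endoderm markers, 13 were over 1 FPKM in this library and 3 in replicate 2, with a summed FPKM of 251 and 142. Gata4 was at 10.6 FPKM against 0.706 FPKM in replicate 2, Gata6 at 5.70 against 0.405 FPKM, Sox17 at 2.48 against 0.187 FPKM and Cubn at 11.2 against 0.225 FPKM. In Pcgf5-/- cells at day 6 the summed FPKM of the list was 125 and 94.0, with 6 and 4 markers over 1 FPKM, and replicate 1 had more Gata4 (3.89 against 1.24 FPKM) and Cubn (3.54 against 0.152 FPKM) than replicate 2. At day 0 the summed FPKM was 166 and 128 in wild type and 146 and 270 in Pcgf5-/- cells, with 2 to 6 markers over 1 FPKM, and Ttr was at 0 in 3 of these 4 libraries. Sparc alone made up most of the sum in every library. Of Sparc, wild type held 158 and 124 FPKM at day 0, and the Pcgf5-/- libraries of that day 140 and 259 FPKM. Wild type held 161 and 115 FPKM of it at day 6, and the Pcgf5-/- libraries of that day 84.5 and 73.8 FPKM. Without replicate 1 of wild type at day 6, the log2 fold change was 0.82 for Lamb1 (limma adjusted p = 0.263) and 0.69 for Lama1 (limma adjusted p = 0.341), while the changes of Lama4 (-1.27, limma adjusted p = 0.0742) and Itga8 (0.54, limma adjusted p = 0.101) no longer passed. Without replicate 2, that of Lama1 was 2.96 (limma adjusted p = 0.00561). The part of the endoderm markers in the laminin values was not tested.

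**Figure D2:**
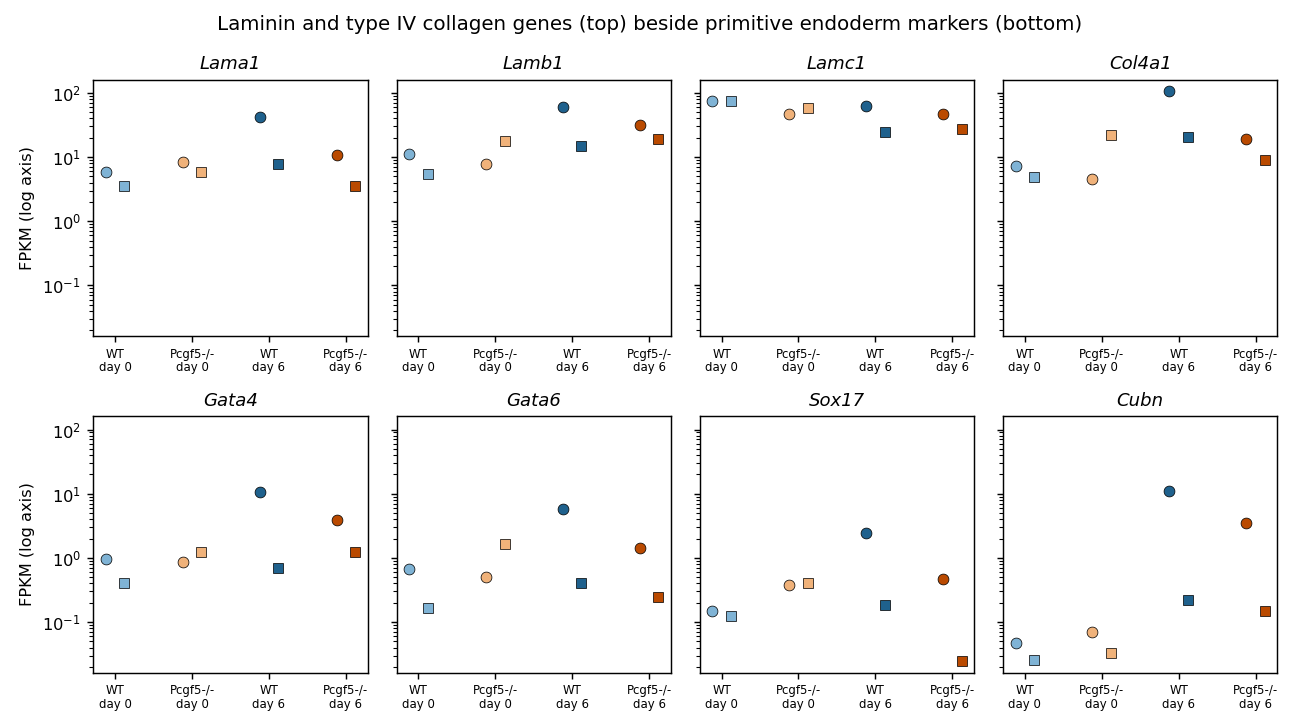
FPKM on a log axis for Lama1, Lamb1, Lamc1 and the type IV collagen gene Col4a1 (top) and for the primitive endoderm markers Gata4, Gata6, Sox17 and Cubn (bottom) in the 4 conditions. Circles are replicate 1 and squares replicate 2: at day 6 the circle of wild type lies above the square in all 8 panels, with Lama1 at 42.1 against 7.92 FPKM and Gata4 at 10.6 against 0.706 FPKM.

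Feeder cells are mouse fibroblasts, so their transcripts align to the same genome. Of 20 feeder fibroblast markers, 18 or 19 were over 1 FPKM in each library of day 0, and their summed FPKM was 459 and 301 in wild type and 297 and 941 in Pcgf5-/- cells. At day 6 it was 82.7 and 164 in wild type and 64.0 and 59.8 in Pcgf5-/- cells, and between the days 12 of the 19 tested markers fell and 2 rose in wild type. In Pcgf5-/- cells at day 0, replicate 2 had 3.95 against 2.18 FPKM of Lama4 and 1.13 against 0.188 FPKM of Lama2. It also had 1.20 against 0.528 FPKM of Itga11 and 24.7 against 9.63 FPKM of Itga5. This was not particular to these genes: Lamb1 (17.9 against 7.78 FPKM), Itgb5 (15.1 against 7.18 FPKM) and Itgb1 (125 against 82.3 FPKM) were also higher in replicate 2. Lama1 (5.94 against 8.50 FPKM) and Lama5 (5.79 against 6.93 FPKM) were lower there. In wild type at day 0 Itga11 was at 0.900 and 0.867 FPKM, beside feeder sums of 459 and 301. The part of feeder RNA in the falls from day 0 was not tested. Leaving out single libraries left 5 to 12 calls in wild type: 5 without replicate 1 and 7 without replicate 2 of day 0, and 8 without either replicate of day 6. Itgb8, Itgb7, Itgb5 and Itgal kept their calls without any 1 of the 8 libraries.

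The second comparison, between the genotypes at day 6, asked what loss of Pcgf5 changed in the differentiated cells. In Pcgf5-/- cells 3 of the 22 genes were higher (Itga6, Itgb3 and Itgb7) and 2 were lower (Itgb8 and Lamb2). Over all tested genes 9.57% were higher and 7.05% lower. The median log2 fold change was 0.06 over the 22 genes and 0.02 over all tested genes. Of the 5 genes 4 were integrins, 3 of them β subunits, and Itgb1 was not among them, with 96.5 and 89.8 FPKM in wild type against 90.4 and 79.0 FPKM in Pcgf5-/- cells (log2 fold change -0.14, 95% interval -0.57 to 0.29, limma adjusted p = 0.651).

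Itgb8 (chromosome 12, 120401276 to 120476749 in mm9) was the 1 integrin that was lower in Pcgf5-/- cells. It had 6.88 and 5.07 FPKM in wild type against 2.77 and 0.926 FPKM in Pcgf5-/- cells, and the Cufflinks intervals of the wild-type values (5.95 to 7.55 and 4.29 to 5.84 FPKM) lay above those of the Pcgf5-/- values (2.26 to 3.25 and 0.633 to 1.20 FPKM). The Pcgf5-/- mean was 0.309 of the wild-type mean, and the log2 fold change was -1.36 (SE 0.30, limma adjusted p = 0.0220). Its promoter, shown above, held 12 CG dinucleotides. Lamb2 (chromosome 9, 108382193 to 108392861), the β chain of synaptic and kidney laminins, had 7.25 and 9.86 FPKM in wild type against 4.67 and 4.27 FPKM in Pcgf5-/- cells. The mean fell to 0.522 of that of wild type, a change of -0.79 in log2 units (SE 0.21, limma adjusted p = 0.0401), with groups that did not overlap.

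Itgb3 (chromosome 11, 104469314 to 104531785), which forms the vitronectin receptor with Itgav, had 0.613 and 0.426 FPKM in wild type against 2.37 and 1.91 FPKM in Pcgf5-/- cells. The mean was 4.12 times that of wild type, and the log2 fold change was 1.05 (SE 0.21, limma adjusted p = 0.0165). Itgb3 passed the minimum only in the Pcgf5-/- conditions, where it was high, so this call rests in part on that selection. With each gene centred on the median of its chromosome the value of Itgb3 was 0.68 (limma adjusted p = 0.0759). Itgb7 (chromosome 15, 102046426 to 102062366) had 0.583 and 0.466 FPKM in wild type against 2.03 and 1.79 FPKM in Pcgf5-/- cells, 3.64 times the wild-type mean (log2 fold change 0.93, SE 0.22, limma adjusted p = 0.0266). Its α partners did not reach the minimum, Itga4 being at 0.317 and 0.343 FPKM and Itgae at 0.366 and 0.278 FPKM in the same Pcgf5-/- libraries. Itga6 (chromosome 2, 71624996 to 71696484) had 15.0 and 11.8 FPKM in wild type against 30.6 and 19.01 FPKM in Pcgf5-/- cells, 1.85 times the wild-type mean (log2 fold change 0.81, SE 0.22, limma adjusted p = 0.0406). For all 3 genes both Pcgf5-/- libraries lay above both wild-type libraries. With all libraries kept, Itga6 lost its call with no filter on low values, no variance trend and only the groups compared. Lamb2 lost its call with no filter and only the groups compared, and Itgb8 with these and a pseudocount of 0.1. Itgb7 lost its call with no filter and Itgb3 with centring by chromosome.

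**Figure D3:**
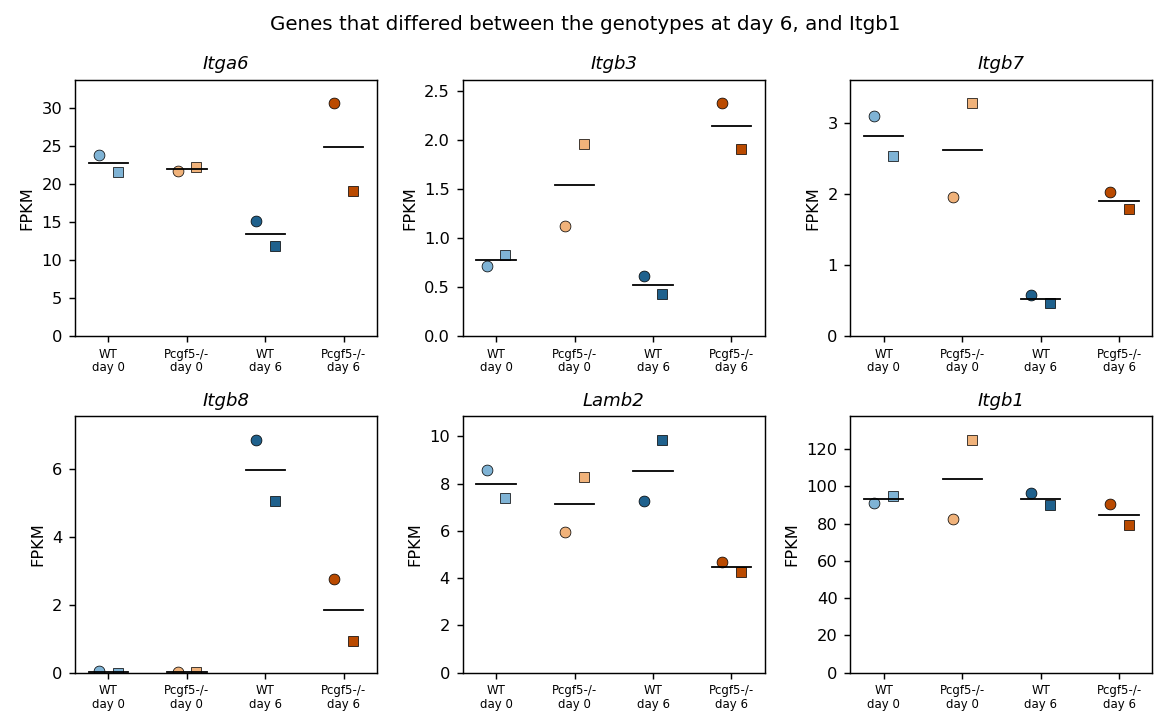
FPKM of the 5 genes that differed between the genotypes at day 6, and of Itgb1, in the 4 conditions, with circles for replicate 1, squares for replicate 2 and bars for the mean. Itgb8 is near 0 at day 0 and lower in Pcgf5-/- cells at day 6, Itga6, Itgb3 and Itgb7 are higher there, Lamb2 is lower, and the day 6 groups of these 5 genes do not overlap.

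Beside these genes, 13 of the 14 naive pluripotency genes were higher and 11 of the 12 neural progenitor genes lower in Pcgf5-/- cells at day 6, and the part of the cell mixture in the integrin values was not tested. Itga6 and Itgb7 were among the genes that fell with differentiation in wild type and Itgb8 among those that rose, while Itgb3 and Lamb2 passed no test between the days. Both comparisons share the wild-type libraries of day 6. The Lama1, Lamb1 and Lamc1 chains were not called: Lama1 had 42.1 and 7.92 FPKM in wild type against 10.6 and 3.52 FPKM in Pcgf5-/- cells (log2 fold change -1.44, SE 0.69, limma adjusted p = 0.193). The value of Lama1 was -0.30 without replicate 1 of wild type at day 6 (limma adjusted p = 0.776) and -2.57 without replicate 2 (limma adjusted p = 0.0494). Lamb1 had 32.0 and 19.3 FPKM and Lamc1 47.2 and 27.7 FPKM in Pcgf5-/- cells, inside the span of their wild-type values.

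Itga3 did not separate the genotypes at day 6, with 20.3 and 17.3 FPKM in Pcgf5-/- cells against 12.1 and 26.9 FPKM in wild type (log2 fold change 0.05, 95% interval -0.89 to 0.99, limma adjusted p = 0.949). Itgam, a leukocyte α subunit, had 0.716 and 0.259 FPKM in wild type against 2.09 and 0.900 FPKM in Pcgf5-/- cells, with a log2 fold change of 0.72 (SE 0.26) that did not pass (limma adjusted p = 0.0931). Itgb2, its partner, was at 0.290 and 0.176 FPKM in these Pcgf5-/- libraries. Leaving out 1 library changed the calls: 1 gene passed without replicate 1 of Pcgf5-/- cells at day 6 (Itgb8), without replicate 1 of wild type at day 6 (Itgb3) or without replicate 2 of wild type at day 6 (Lama1), and 3 passed without replicate 2 of Pcgf5-/- cells at day 6 (Itga6, Itgam and Lama5) or without either wild-type library of day 0 (Itgb3, Itgb7 and Itgb8). Without replicate 1 of wild type at day 6, the log2 fold change was -1.17 for Itgb8 (limma adjusted p = 0.0898), 0.99 for Itgb7 (limma adjusted p = 0.0781), 0.97 for Itga6 (limma adjusted p = 0.0684), -0.99 for Lamb2 (limma adjusted p = 0.0612) and 1.13 for Itgb3 (limma adjusted p = 0.0434). None of the 5 genes kept its call without each of the 8 libraries in turn.

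**Figure D4:**
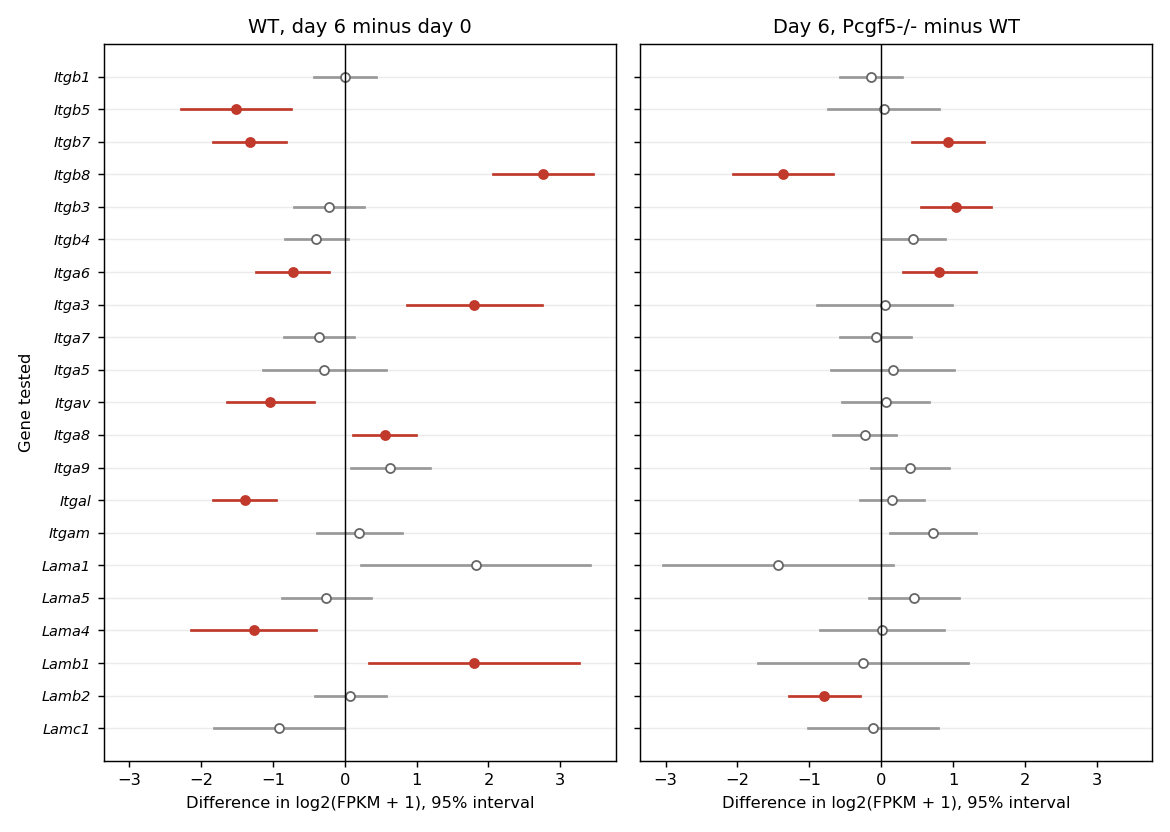
Difference in log2(FPKM + 1) with its 95% interval for tested integrin and laminin genes, between the days in wild type (left) and between the genotypes at day 6 (right), with filled red points for genes past the threshold. In the left panel the 4 genes that rose are filled to the right of 0, and in the right panel 5 genes are filled, 3 of them to the right of 0.

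Among the β partners of αv other than Itgb1 the make-up of the transcripts changed, since Itgb5, Itgb3 and Itgb8 moved differently. Itgb1 also pairs with αv, had far higher FPKM and was left out of the shares that follow. As a share of the summed FPKM of Itgb3, Itgb5, Itgb6 and Itgb8, Itgb5 was 94.1% and 96.0% in wild type at day 0 and 86.3% and 88.4% in Pcgf5-/- cells. At day 6 Itgb8 was 51.8% and 52.4% in wild type and 27.1% and 11.8% in Pcgf5-/- cells. Itgb3 was 4.61% and 4.41% in wild type at day 6 and 23.3% and 24.3% in Pcgf5-/- cells. Itgb8 was thus the leading subunit of this group in both wild-type libraries of day 6, and Itgb5 in both Pcgf5-/- libraries, at 49.6% and 63.9%. Itgb5 itself had 5.75 and 4.14 FPKM in wild type against 5.06 and 5.02 FPKM in Pcgf5-/- cells at day 6, and Itgav 5.63 and 3.66 FPKM against 6.04 and 3.77 FPKM, ranges that overlap. Shares of FPKM compare transcript levels per length and do not measure assembled receptors.

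**Figure D5:**
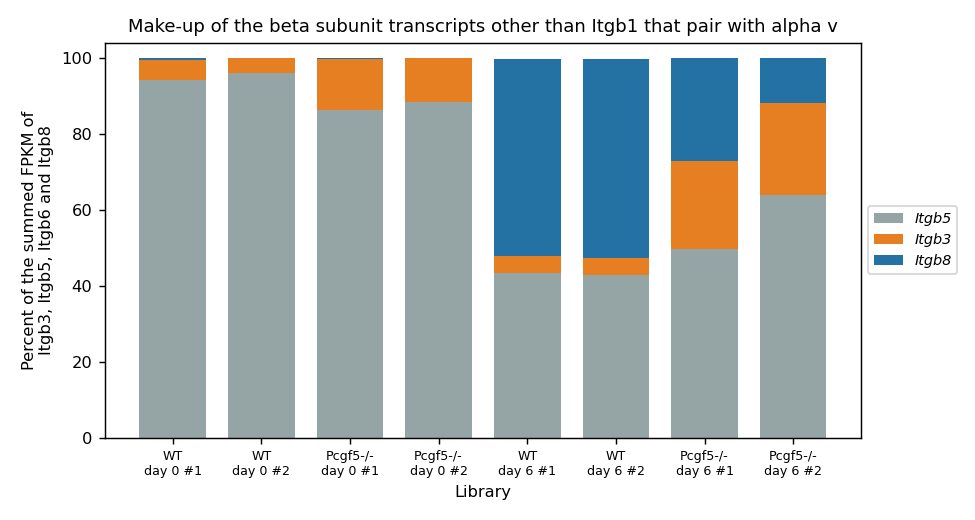
Share of Itgb5, Itgb3 and Itgb8 in the summed FPKM of Itgb3, Itgb5, Itgb6 and Itgb8 in each library, with bars in percent starting at 0 (Itgb6, the remainder, is not drawn). Itgb1, which also pairs with αv, is left out of the sum. Itgb8 makes up 51.8% and 52.4% in wild type at day 6 and 27.1% and 11.8% in Pcgf5-/- cells, where Itgb3 holds 23.3% and 24.3%.

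Itgb1 was 79.6% to 89.3% of the summed FPKM of all β subunits in the 8 libraries, and its FPKM was 1.24 to 2.16 times the summed FPKM of the 12 α subunits counted as its partners. Lama1 was 84.9% and 51.7% of the laminin α chains in wild type at day 6 and 41.9% and 31.9% in Pcgf5-/- cells, where Lama5 led with 54.1% and 62.4%. Itga3 was 39.6% and 47.3% of the laminin-binding α subunits in Pcgf5-/- cells at day 6.

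Within Pcgf5-/- cells, 2 of the 22 genes rose from day 0 to day 6 (Itgb8 and Itgam) and 4 fell (Itga7, Itgal and Lama4 among them). Over all tested genes 21.9% rose and 10.4% fell. As in wild type, a gene over the minimum only on the day on which it was high had to differ between the days, so these counts are a description. In both genotypes Itgal and Lama4 exceeded the minimum only at day 0 and Itgb8 only at day 6, so their calls between the days rest in part on that selection. The median log2 fold change was -0.21 over the 22 genes and 0.13 over all tested genes. Itgb8 had 0.0205 and 0.0215 FPKM at day 0 and 2.77 and 0.926 FPKM at day 6, so that it rose in these cells too, by 1.40 on the log2 scale (SE 0.30, limma adjusted p = 0.0104). Itgam had 0.293 and 0.208 FPKM at day 0 and 2.09 and 0.900 FPKM at day 6 (log2 fold change 0.96, SE 0.26, limma adjusted p = 0.0248). It was tested only because it passed the minimum in Pcgf5-/- cells at day 6, where it was high, so this call rests in part on that selection. The summed FPKM of the 12 leukocyte and platelet markers went the other way in Pcgf5-/- cells, from 46.2 and 33.7 at day 0 to 14.8 and 13.4 at day 6. Of the 4 tested markers 0 rose and 2 fell. Laptm5 went from 22.4 and 16.7 FPKM to 6.19 and 2.58 FPKM. At day 6 Cd68 was at 6.18 and 9.47 FPKM and Ptprc at 0.0111 and 0 FPKM. The part of leukocyte transcripts in the value of Itgam was not tested.

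Lama4, among the genes that fell in Pcgf5-/- cells, had 2.18 and 3.95 FPKM at day 0 and 0.389 and 0.334 FPKM at day 6 (log2 fold change -1.54, SE 0.38, limma adjusted p = 0.0165). Itgal had 0.890 and 1.49 FPKM at day 0 and 0.276 and 0.201 FPKM at day 6, and Itga7, a laminin receptor subunit of muscle, 0.966 and 1.47 FPKM and then 0.406 and 0.352 FPKM. The log2 fold changes were -0.81 for Itgal (limma adjusted p = 0.0151) and -0.68 for Itga7 (limma adjusted p = 0.0426). Itga7 was tested only because it passed the minimum in Pcgf5-/- cells at day 0, where it was high, so its call rests in part on that selection. Itga3 went from 6.66 and 12.6 FPKM to 20.3 and 17.3 FPKM, and its change of 0.96 in log2 units did not pass (limma adjusted p = 0.109), and Lamb1 from 7.78 and 17.9 FPKM to 32.0 and 19.3 FPKM, one of 1.00 (limma adjusted p = 0.262). Of the 19 tested feeder markers 14 fell over these days. Leaving out replicate 2 of day 0, the library with the most feeder transcripts, left 3 calls (Itga9 and Itgb8 among them), leaving out replicate 1 of day 6 left 2 (Itgb8 among them), and leaving out replicate 2 of day 6 left 4. Without replicate 2 of day 0 the log2 fold change was -1.23 for Lama4 (limma adjusted p = 0.0878), -0.61 for Itgal (limma adjusted p = 0.0713), -0.51 for Itga7 (limma adjusted p = 0.177) and 0.91 for Itgam (limma adjusted p = 0.0904).

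At day 0, before differentiation, none of the 22 genes passed between the genotypes by limma (smallest adjusted p = 0.278), 1 had an unadjusted p under 0.05, and over all tested genes 0.333% passed. Pcgf5 itself did not pass at day 0 (log2 fold change -1.07, limma adjusted p = 0.105), so the absence of calls does not show that the genotypes were alike. The gene with the unadjusted p under 0.05 was Itgb3, with 0.717 and 0.828 FPKM in wild type against 1.12 and 1.96 FPKM in Pcgf5-/- cells. Its log2 fold change was 0.50 (SE 0.21) and became -0.03 with the gene centred on the median of chromosome 11. Itga3, on the same chromosome, had 3.25 and 6.04 FPKM in wild type against 6.66 and 12.6 FPKM in Pcgf5-/- cells, with no overlap. Its log2 fold change was 0.90 (95% interval -0.05 to 1.84, limma adjusted p = 0.310) and became 0.37 with the same centring. Itgb1 had 91.3 and 94.9 FPKM in wild type against 82.3 and 125 FPKM in Pcgf5-/- cells. Itga6 lay between 21.6 and 23.8 FPKM in all 4 libraries, and Lamc1 was at 74.3 and 75.6 FPKM in wild type against 47.3 and 57.3 FPKM in Pcgf5-/- cells.

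The difference of the genotype effect between day 6 and day 0 passed for none of the 22 genes by limma (smallest adjusted p = 0.106), 3 had an unadjusted p under 0.05, and over all tested genes 3.09% passed. The 3 genes were Itgb8 with -1.36 on the log2 scale (limma adjusted p = 0.114), Itgb7 with 1.03 (limma adjusted p = 0.106) and Itga6 with 0.86 (limma adjusted p = 0.156). The value for Itgb3 was 0.55 (limma adjusted p = 0.313), for Lamb2 -0.63 (limma adjusted p = 0.256) and for Lama1 -1.99 (limma adjusted p = 0.269). Differences that passed at day 6 and missed at day 0 were therefore not shown to differ between the days.

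Further lists place these genes among their partners: adaptors that link integrins to the cytoskeleton, other basement membrane components, and integrin ligands. Of 30 tested adaptor genes 2 were higher and 0 lower in Pcgf5-/- cells at day 6, with a median log2 fold change of -0.08, beside 9.57% higher, 7.05% lower and a median of 0.02 over all tested genes. These were Tns3, a tensin that binds integrin tails, at 8.19 and 5.23 FPKM in wild type against 25.2 and 14.6 FPKM in Pcgf5-/- cells. The other was Cd9, a tetraspanin that associates with integrins, at 37.9 and 20.3 FPKM in wild type against 69.9 and 66.5 FPKM in Pcgf5-/- cells. Their log2 fold changes were 1.42 for Tns3 (limma adjusted p = 0.0151) and 1.26 for Cd9 (limma adjusted p = 0.0156). Between the days in wild type 10 adaptors rose and 5 fell, shares close to the 34.2% and 16.2% over all tested genes. The 4 with the largest log2 fold changes were Cd9 (-2.82), Dab2, an endocytic adaptor that is also on the list of endoderm markers (2.78), Fyn, a kinase of integrin signalling (2.54), and Parva, a parvin that links integrins to actin (2.15). Without replicate 1 of wild type at day 6 the value of Dab2 was 1.75 (limma adjusted p = 0.0213).

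Of 19 tested basement membrane partners 1 was higher and 3 were lower in Pcgf5-/- cells at day 6, with a median log2 fold change of -0.34, beside 9.57% higher, 7.05% lower and a median of 0.02 over all tested genes. Nid2, a nidogen that bridges laminin and type IV collagen, was at 22.2 and 12.1 FPKM in wild type against 64.4 and 40.4 FPKM in Pcgf5-/- cells (log2 fold change 1.58, limma adjusted p = 0.0112). Ntn1, a laminin-related guidance protein, was at 18.3 and 16.8 FPKM in wild type against 5.75 and 4.70 FPKM in Pcgf5-/- cells (log2 fold change -1.58, limma adjusted p = 0.00377). Fras1, a matrix protein of embryonic epithelia, had a log2 fold change of -0.97 and Ntn4, a netrin that caps laminin networks, one of -0.85, which was -0.73 without replicate 1 of wild type at day 6 (limma adjusted p = 0.0561). Fras1 had 2.31 and 2.64 FPKM in wild type against 0.824 and 0.725 FPKM in Pcgf5-/- cells at day 6. Ntn4 had 2.28 and 1.77 FPKM against 0.573 and 0.787 FPKM. Both passed the minimum only in wild type at day 6, where they were high, so these calls rest in part on that selection. Both nidogens fell between the days in wild type, Nid1 by 2.94 and Nid2 by 2.02 on the log2 scale. Of the 19 partners 8 rose and 3 fell in wild type, beside 34.2% and 16.2% over all tested genes. The type IV collagens Col4a1 (2.77) and Col4a2 (2.82), which form the second network of basement membranes, rose between the days, and both were highest in replicate 1 of wild type at day 6. Without that library their values were 1.62 (limma adjusted p = 0.131) and 2.00 (limma adjusted p = 0.0679). Frem2, a matrix protein related to Fras1, rose by 2.22. Nid2 (1.88, limma adjusted p = 0.0491) and Ntn1 (-1.72, limma adjusted p = 0.0243) also passed the test of the difference between the days, but not without replicate 2 of Pcgf5-/- cells at day 0 (1.86, limma adjusted p = 0.140, and -1.85, limma adjusted p = 0.0798).

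Of 20 tested integrin ligands 3 were higher and 4 lower at day 6 in Pcgf5-/- cells, with a median log2 fold change of -0.54, beside 9.57% higher, 7.05% lower and a median of 0.02 over all tested genes. Spp1, osteopontin, an RGD ligand of αv integrins, was at 377 and 363 FPKM in wild type at day 0, at 10.8 and 8.47 FPKM in wild type at day 6 and at 33.9 and 35.5 FPKM in Pcgf5-/- cells at day 6 (log2 fold change between the genotypes 1.75, limma adjusted p = 0.00328). Its test of the difference between the days also passed (1.99, limma adjusted p = 0.0185), but not without replicate 2 of Pcgf5-/- cells at day 0 (1.82, limma adjusted p = 0.0548). Icam1, the ligand of the Itgal integrin, was at 1.25 and 1.18 FPKM in wild type against 4.48 and 4.09 FPKM in Pcgf5-/- cells at day 6 (log2 fold change 1.25, limma adjusted p = 0.0109). Cdh1, a ligand of the Itgae integrin, was higher by 1.07 (limma adjusted p = 0.0108), and Jam3 (-1.25) and Cyr61 (-1.16) were lower in Pcgf5-/- cells. Without replicate 1 of wild type at day 6 Cyr61 had -1.36 and did not pass (limma adjusted p = 0.0667). In wild type 3 ligands rose and 8 fell between the days, beside 34.2% and 16.2% over all tested genes, Spp1 with a log2 fold change of -5.13 and Icam1 with one of -3.23. In Pcgf5-/- cells 1 rose and 13 fell, beside 21.9% and 10.4% over all tested genes, led by Tnc, a matrix glycoprotein (-3.60), the adhesion molecule Jam2 (-3.33) and Spp1 (-3.14). Without replicate 2 of Pcgf5-/- cells at day 0 the values were -2.52 for Tnc, -3.40 for Jam2 and -3.31 for Spp1, so the lead of Tnc rested on that library.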

How the data were processed

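RNA-seq of 8 samples was analysed from the gene tables of the authors. The authors trimmed reads and removed identical duplicates, and mapped the pairs to mm9 by TopHat2. Cufflinks then gave the deposited FPKM, scaled to library size and to exon length. The submitters' processing notes name TopHat2 2.0.4 and Cufflinks 2.1.1, and the annotation was not given in the sources used here. Removing identical reads lowers the values of abundant transcripts.

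Groups were taken from the sample titles. FPKM was analysed as log2(FPKM + 1), which understates the change of weakly expressed genes, over the 13214 genes whose mean exceeded 1 FPKM in 1 condition or more. The 8 samples were fitted together in limma 3.58.1 (R 4.3.3), with condition means, a variance trend and without a replicate block. Tests were two-sided, with Benjamini-Hochberg adjustment over all tested genes and 0.05 as the threshold. P-values rest on 2 samples per condition. The fit was tested on simulated data, in 5 runs with 200 of 13214 genes changed in Pcgf5-/- cells at day 6. It recovered 93.8% of 4-fold and 42.5% of 2-fold changes on the log2(FPKM + 1) scale. Of its calls 5.79% were false. Log2 fold changes are printed for genes past the threshold and for those of the highest FPKM in each role, a few others having been added after their values were seen. Of the partner lists, up to 5 genes per list and comparison are named, in order of the size of the change among those past the threshold. The genes and lists were chosen with earlier results of these data known. Tables and figures were made with Python 3.11.15, pandas 2.3.3, numpy 2.4.6 and matplotlib 3.10.9.

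Alternatives were pseudocounts of 0.1 and 0.5, a minimum of 5 FPKM or none, quantile normalization, a replicate block, no trend, only the groups compared, centring by chromosome, a 1.5-fold rule without a test, and leaving out each sample. The result of 1 gene of these families is not reported here.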

Additional observations from a re-analysis of the deposited data

Results flagged for a closer look

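For 2 genes every Pcgf5-/- library lay on one side of the wild-type libraries at day 0 and on the other side at day 6. Itgal was lower in Pcgf5-/- cells at day 0 (0.890 and 1.49 FPKM against 1.75 and 2.12 FPKM in wild type) and higher at day 6 (0.276 and 0.201 FPKM against 0.113 and 0.115 FPKM), and the difference of the effects was 0.59 on the log2 scale (limma adjusted p = 0.242). Lama5 was lower at day 0 (6.93 and 5.79 FPKM against 8.35 and 8.38 FPKM) and higher at day 6 (13.7 and 6.91 FPKM against 6.84 and 6.86 FPKM), and the difference of the effects was 0.81 (limma adjusted p = 0.251). Neither difference passed the test, and for Lama5 replicate 2 of Pcgf5-/- cells at day 6 lay next to the wild-type values.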

How the results depend on the processing

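With 2 libraries per condition, most calls rested on all of them. Over the 22 called values printed, 165 of 188 recomputed under other settings kept their call and 23 lost it, none reversing. Of 176 recomputed without 1 library 117 kept it and 59 lost it, again with none reversed. Leaving out 2 libraries in turn for the partner genes was chosen after the data were seen. The cause of each loss was not tested.

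Between the genotypes at day 6 the count of 5 became 1 with no filter on low values, 3 with a minimum of 5 FPKM (13 of the genes tested), 2 with only the groups compared, 10 by the 1.5-fold rule, and 1 to 4 without single libraries. The calls over all genes moved too, from 2197 to 1745, 1722, 1647, 4101 and 297 to 1977 in the same order. In wild type between the days the count of 11 became 7 with a minimum of 5 FPKM and 5 to 12 without single libraries, while all genes went from 6668 to 4925 and 4702 to 6535. In Pcgf5-/- cells the count of 6 became 2 with a minimum of 5 FPKM, 14 by the 1.5-fold rule, and 2 to 6 without single libraries, while all genes went from 4271 to 3077, 5374 and 2367 to 4147. At day 0 the count of 0 became 7 by the 1.5-fold rule, and under every other setting, with or without single libraries, it stayed 0, as did the count for the difference between the days.

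In a fit that blocks on the replicate number the counts were 5 at day 6, 0 at day 0, 12 in wild type (Lama1 added), 6 in Pcgf5-/- cells (Itga3 added with a limma adjusted p of 0.0443, Itga7 lost with 0.0561) and 0 for the difference between the days. The numbers mark no stated batch. The correlation of the differences between replicates was 0.39 between the genotypes at day 6, 0.10 at day 0 and -0.08 to -0.02 across the days.

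The uncalled genotype values that changed sign were those of Itga3 at day 6 (-0.32 with centring by chromosome, -0.06 without replicate 1 of Pcgf5-/- cells and -0.50 without replicate 1 of wild type at day 6, with 0.60 as the highest value), Itgb1 at day 6 (0.065 with centring) and Itgb3 at day 0 (-0.026 with centring). Lamb1 at day 6 was 0.10 without replicate 2 of Pcgf5-/- cells and 0.72 without replicate 1 of wild type, and Lamc1 0.26 and 0.54, the lowest values, both without replicate 2 of wild type, being -1.23 and -0.77. Itgb8 at day 6 was -1.81 with a pseudocount of 0.1 (limma adjusted p = 0.0595).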
